A study of Gallus gallus with 4 samples.

Results

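The regions described here are the long stretches of chicken autosomes in which no H3K27ac peak was called in otic-epibranchial progenitors (OEPs). A member is an interval of 200 kb or more, edge to edge, between neighbouring H3K27ac peaks on the same autosome. There were 409 such gaps among 43384 intervals between autosomal H3K27ac peaks, or 0.943% of them. The tissue, ectoderm that forms the ear and the epibranchial placodes, came from chick embryos at the stage of 8 to 9 somites, and about 200 dissected pieces were pooled. Chromatin immunoprecipitation and sequencing (ChIPseq) was performed for H3K27ac, H3K4me3 and H3K27me3, next to an input library made without antibody. No treatment or genotype separated the samples, and each mark was represented by 1 library without a replicate. The peak lists of the 3 marks were analysed, and the input was not used here. They give no read counts, so sequencing depth is unknown. No p-value is therefore given. Values in parentheses after a share, a density or a ratio are 95% intervals for counting error alone, which take each peak as an independent event.

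Acetylation of histone H3 at lysine 27 (H3K27ac) marks active enhancers and promoters, and trimethylation at lysine 4 (H3K4me3) marks promoters. Trimethylation at lysine 27 (H3K27me3) is laid down by the Polycomb repressive complex and marks genes held silent, often developmental regulators. A single lysine 27 cannot be acetylated and methylated at the same time. Promoters that bear H3K4me3 together with H3K27me3 are called bivalent and are known from stem cells and embryonic tissues. The libraries here came from pooled tissue, so overlapping peaks do not show that the marks lay in the same cells. A long gap in H3K27ac is thus a place where the other marks can be read without an acetylated neighbour. The gaps were selected on the positions of H3K27ac peaks, so their length and the absence of H3K27ac inside are descriptions. H3K4me3 and H3K27me3 took no part in the choice.

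The autosomes carried 43416 H3K27ac, 25308 H3K4me3 and 19942 H3K27me3 peaks. The gaps added up to 135.6 Mb, which was 14.1% of the 959.9 Mb spanned by peaks on 32 autosomes. Their median length was 279.5 kb, with quartiles of 228.1 and 374.7 kb, while the median interval between H3K27ac peaks was 7.82 kb. Between 200 and 300 kb lay 240 gaps, between 300 and 500 kb 120, and 49 gaps reached 500 kb or more. Only 4 gaps exceeded 1 Mb. Coordinates are 1-based on GalGal6 and run from the base after one border peak to the base before the next. The longest gap, of 2177 kb, lay on chromosome 31 (chr31:2576519-4753432). It was followed by gaps of 1320 kb on chromosome 1 (chr1:101170284-102490507), 1185 kb on chromosome 16 (chr16:587736-1772927), 1152 kb on chromosome 1 (chr1:116727226-117879297) and 828 kb on chromosome 4 (chr4:40961189-41789124). None of these 5 was empty of the other marks. They held 32, 18, 8, 16 and 8 H3K4me3 peaks and 108, 42, 34, 22 and 9 H3K27me3 peaks, in the same order. The widest H3K27me3 peak measured 10354 bp in the first, and between 1302 and 2031 bp in the other 4.

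The limit of 200 kb cut through a continuous series of lengths. The 3 gaps just inside it measured 200.1, 200.6 and 200.7 kb and held 2, 3 and 2 H3K4me3 peaks and 2, 2 and 3 H3K27me3 peaks. The 3 intervals just outside it measured 199.7, 199.8 and 199.9 kb, with 1, 4 and 3 H3K4me3 peaks and 1, 4 and 4 H3K27me3 peaks.

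The gaps were unevenly spread over the autosomes. Chromosome 1 had 119, chromosome 2 had 86, chromosome 3 had 55 and chromosome 4 had 52, and they occupied 20.2%, 17.8%, 15.5% and 18.6% of these chromosomes. On chromosome 5 the share was 10.1% in 16 gaps, and on chromosome 9 it was 2.76% in 3 gaps. No gap was found on 11 autosomes, which were chromosomes 15, 17 to 21, 23, 24, 26, 28 and 32. Some small chromosomes stood at the other extreme. Gaps took up 59.0% of the span of chromosome 16 in 3 gaps, 49.8% of chromosome 31 in 3 gaps, 30.2% of chromosome 30 in 2 gaps and 27.1% of chromosome 33 in 5 gaps. Chromosome 16 is known as the carrier of the chicken major histocompatibility complex and of the nucleolar organiser.

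**Figure D1:**
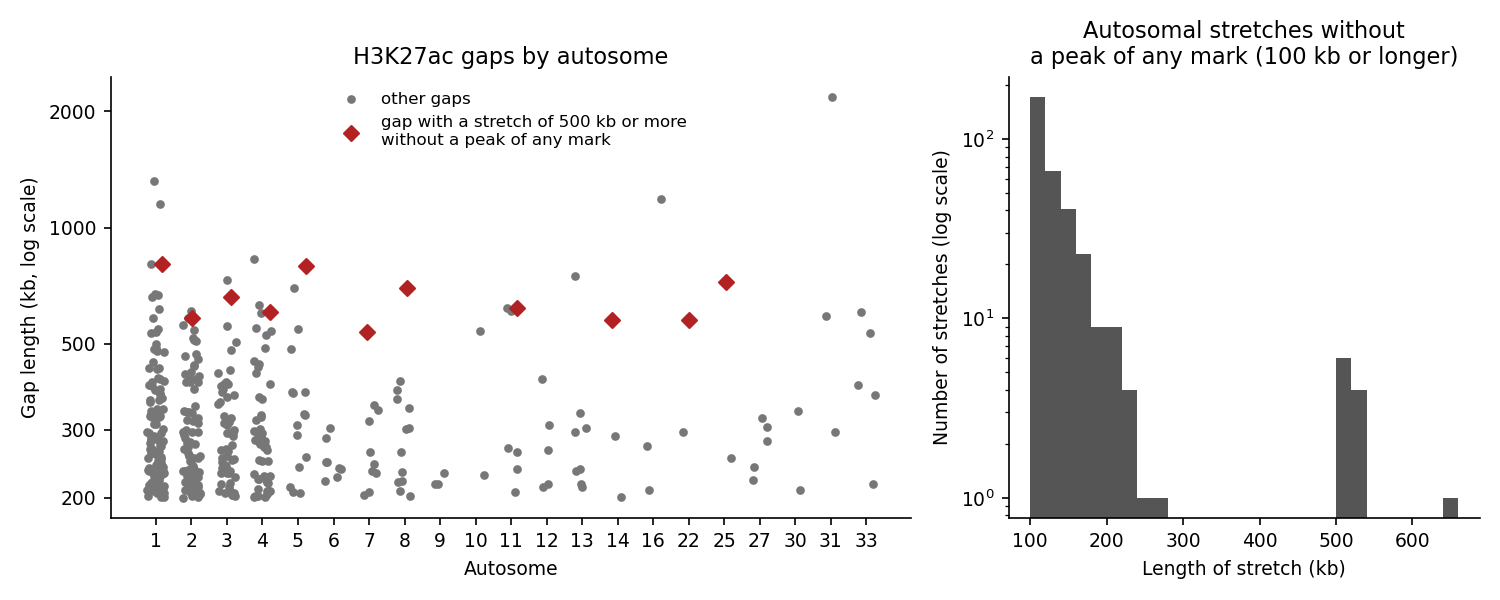
Left, length in kb on a log scale of each of 409 gaps by autosome, with a diamond for the 11 gaps that hold a stretch of 500 kb or more without a peak of any mark. Right, number on a log scale of autosomal stretches of 100 kb or more without a peak of any mark, by length in bins of 20 kb. Most gaps lie between 200 and 500 kb, and the stretches form a separate group just above 500 kb, with 0 between 300 and 500 kb.

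A set of gaps stood apart by the emptiness of their interior. When the 3 lists were read together, 11 autosomal stretches of 500 kb or more had no peak of any mark, and all 11 lay inside gaps. Of these, 10 measured between 500.9 and 536.1 kb, and the remaining one 654.8 kb. No stretch fell between 300 and 500 kb. The next longest measured 278.2 kb, and 15 lay between 200 and 300 kb, all of them inside gaps. The 11 stretches lay on 11 different chromosomes, 1 on each of chromosomes 1, 2, 3, 4, 5, 7, 8, 11, 14, 22 and 25. The longest was at chr1:76460329-77115126, inside a gap of 806.8 kb with 5 H3K4me3 and 3 H3K27me3 peaks. On chromosome 7 the stretch was the whole gap, chr7:7318076-7854130. On chromosome 22 it left 49.1 kb of a gap of 577.2 kb (chr22:3037850-3615018), and on chromosome 3 it left 162.3 kb of a gap of 663.2 kb (chr3:5676161-6339336). Without the stretch, 9 of the 11 gaps would fall below 200 kb. Together the stretches made up 5.80 Mb, or 4.28% of the length of all gaps. Whether reads can be placed in them was not tested, since the sequence of this build was not used.

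Apart from these stretches, peak-free gaps were rare. Of 409 gaps, 390 held peaks of both other marks, 5 held H3K4me3 alone, 11 held H3K27me3 alone and 3 held neither. Among the 1044 H3K27ac-free intervals of 100 to 200 kb, 31 (2.97%) held neither. Longer intervals leave more room for a peak, so the rarity of empty gaps cannot be told apart from their length. The 3 empty gaps were that on chromosome 7, one of 217.4 kb on chromosome 9 (chr9:911009-1128450) and one of 211.6 kb on chromosome 2 (chr2:109243232-109454805). All 6 H3K27ac peaks at their borders lacked H3K4me3, as did most H3K27ac peaks. It was found at 24.6% of all border peaks and at 21.1% of all autosomal H3K27ac peaks. The longest peak-free stretch within a gap had a median of 90.7 kb, which was 31.3% of the gap in the median.

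Pooled over all gaps, H3K4me3 was thinner inside than outside, while H3K27me3 was slightly denser, though not in most single gaps. The gaps held 1973 H3K4me3 peaks, or 7.80% of the autosomal list in 14.1% of the span. Their density was 14.6 per Mb against 28.3 per Mb in the rest of the autosomal span, a ratio of 0.514 (0.491 to 0.538). H3K4me3 covered 0.874% of the gaps and 1.83% of the rest. The rest includes the H3K27ac peaks themselves, with which many promoters coincide. H3K27me3 peaks numbered 3117, or 15.6% of the list, at 23.0 per Mb against 20.4 per Mb, a ratio of 1.13 (1.08 to 1.17). They covered 2.08% of the gaps and 1.63% of the rest. Taken singly, 263 of the 409 gaps had a lower H3K27me3 density than the rest, and 375 had a lower H3K4me3 density. The median gap had 16.4 H3K27me3 peaks per Mb.

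These ratios depend on the reference. Peaks in a gap cannot overlap H3K27ac, so the outside was also read without peaks that overlap H3K27ac and without the length under H3K27ac peaks. This reference had 18.1 H3K4me3 and 16.4 H3K27me3 peaks per Mb. Against it the ratio was 0.805 (0.767 to 0.844) for H3K4me3 and 1.40 (1.35 to 1.46) for H3K27me3, and 205 of 409 gaps lay below its H3K27me3 density. It consists mostly of short intervals, into which a whole peak fits less often.

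A nearer reference was the set of 1044 H3K27ac-free intervals of 100 to 200 kb. These had 16.1 H3K4me3 and 19.4 H3K27me3 peaks per Mb. The gaps were at 0.906 times that density for H3K4me3 (0.853 to 0.963) and 1.19 times for H3K27me3 (1.13 to 1.25). H3K27me3 covered 0.905% of the median gap and 0.828% of the median shorter interval. These pooled ratios were not split by chromosome size. More H3K27me3 than H3K4me3 peaks were found in 238 of 409 gaps (58.2%) and in 460 of the 1044 shorter intervals (44.1%). Of the gaps, 115 held more H3K4me3 than H3K27me3 peaks and 56 held equal numbers. The level of both shares depends on the unknown depth of the 2 libraries. Shorter intervals hold fewer peaks each, so equal numbers are likelier there, and the 2 shares cannot be compared directly. Within the gaps the H3K27me3 density was 20.01 per Mb at 200 to 300 kb, 24.7 at 300 to 500 kb and 25.9 from 500 kb. The H3K4me3 density was 14.7, 16.4 and 11.9 per Mb. Without the 11 gaps with a long empty stretch, the 38 gaps left in the class from 500 kb had 13.3 H3K4me3 and 28.9 H3K27me3 peaks per Mb. The 11 were picked for the absence of these peaks, so leaving them out raises both densities, and these values are a description.

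**Figure D2:**
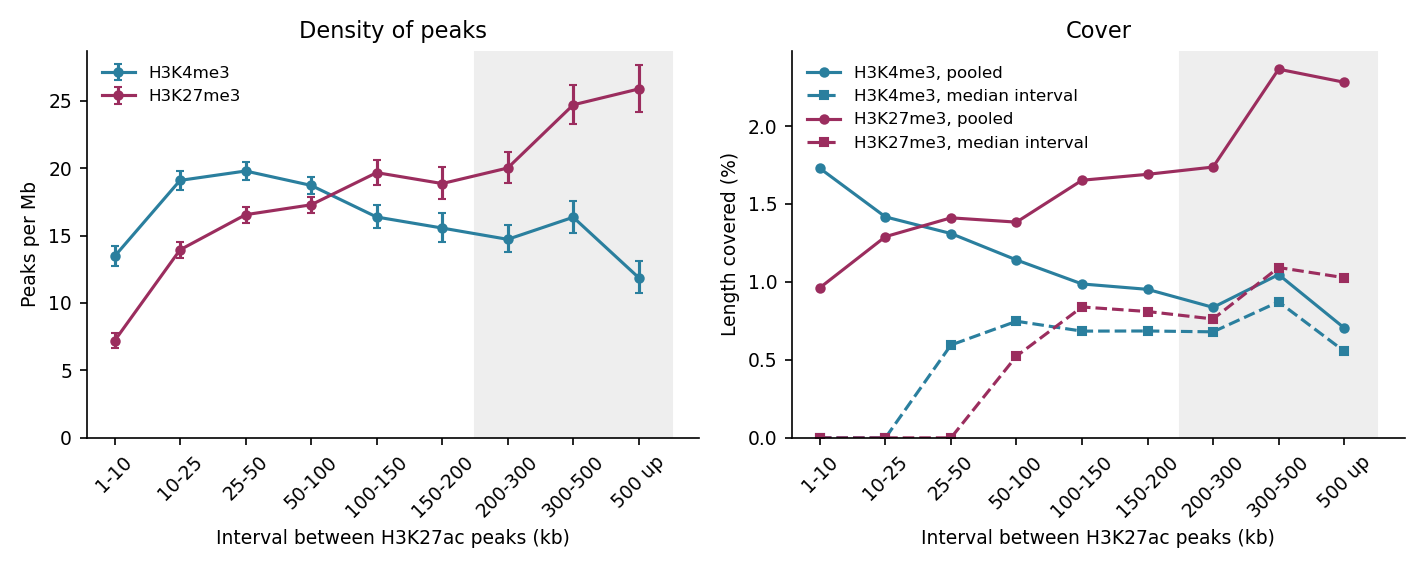
Peaks per Mb (left, bars are exact 95% Poisson intervals of the count) and percent of length covered (right, pooled over intervals and in the median interval) of H3K4me3 and H3K27me3 in intervals between H3K27ac peaks, by interval length in kb. The gaps are shaded. H3K4me3 is at 14.7, 16.4 and 11.9 per Mb and H3K27me3 at 20.01, 24.7 and 25.9 in the 3 classes of gaps, and a peak had to lie wholly inside an interval to be counted, which short intervals allow less often.

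Against all peaks outside, the lower H3K4me3 density held for most chromosomes, while the H3K27me3 difference depended on the chromosome. Among the 13 autosomes with 5 or more gaps, H3K4me3 was less dense inside the gaps than outside on 12, with ratios from 0.285 on chromosome 27, and denser on chromosome 33 alone, with 1.10. For H3K27me3 the ratio was below 1 on 7 of them and above 1 on 6, from 0.532 on chromosome 7 to 2.92 on chromosome 13. On autosomes of 50 Mb or more, which carry 328 of the gaps, the H3K27me3 density was 19.7 per Mb both inside and outside, a ratio of 1.00 (0.955 to 1.05). It was 24.2 against 19.1 per Mb on autosomes of 20 to 50 Mb, a ratio of 1.26 (1.13 to 1.41) over 48 gaps. On autosomes under 20 Mb, with 33 gaps, it was 46.5 against 24.5 per Mb, a ratio of 1.90 (1.74 to 2.06). The H3K4me3 ratio was 0.534, 0.545 and 0.516 in the 3 size classes, with outside peaks that overlap H3K27ac included. Without such peaks, in sequence free of H3K27ac, it was 0.796 (0.753 to 0.842), 0.878 (0.762 to 1.007) and 0.883 (0.776 to 0.9997). The H3K4me3 cover ratio was then 0.779, 0.962 and 1.05, so on autosomes under 50 Mb little difference in cover was left. Against peaks without H3K27ac in sequence free of H3K27ac, the H3K27me3 ratio was 1.25 (1.19 to 1.32), 1.59 (1.42 to 1.78) and 2.27 (2.08 to 2.47) in the same classes. On the largest autosomes the H3K27me3 difference was thus present against this reference and absent against all peaks outside.

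Single gaps varied widely. The number of H3K4me3 peaks ran from 0 to 32, with a median of 4 and quartiles of 2 and 6. That of H3K27me3 peaks ran from 0 to 108, with a median of 5 and quartiles of 3 and 8. The variance over the mean of these counts was 2.995 for H3K4me3 and 12.6 for H3K27me3, though gaps of different length enter it. H3K27me3 covered 0.905% of the median gap, with quartiles of 0.502% and 1.56%, and 66.9% of the most covered one. In 97 of 409 gaps the cover exceeded the 1.63% of the rest of the span, which is a pooled value. Across the 409 gaps the densities of the 2 marks had a Spearman rho of 0.33 and a Pearson r of 0.61, as a description. Both densities share the length of the gap, and gaps of 1 chromosome are neighbours.

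A few gaps carried much of the H3K27me3. The 10 gaps with the most covered length held 32.0% of all H3K27me3 cover in gaps, in 4.09% of the gap length. Without them, the other 399 gaps were covered to 1.47% and held 20.3 H3K27me3 peaks per Mb, close to the 20.4 per Mb outside. The 10 were picked by this cover, and the most covered sequence outside was kept. The values of the other gaps are lowered by that choice, so their closeness to the outside is a description.

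The gap with the largest H3K27me3 cover lay near the end of chromosome 33 (chr33:7478481-7696283, 217.8 kb). Its 25 H3K27me3 peaks covered 145.7 kb, or 66.9% of it, and its 26 H3K4me3 peaks covered 10.3%. All 26 overlapped H3K27me3. The widest H3K27me3 peak there, at chr33:7562736-7608333, measured 45598 bp with a fold enrichment of 7.92 over local background. The second was the longest gap of all, on chromosome 31, with 134.2 kb of H3K27me3 spread over 108 peaks and 6.16% of its length. Its widest H3K27me3 peak was 10354 bp wide with a fold enrichment of 3.72. Of its 32 H3K4me3 peaks, 25 overlapped H3K27me3.

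Next came a gap on chromosome 1 (chr1:83866548-84191148, 324.6 kb), where 44 H3K27me3 peaks covered 128.5 kb, or 39.6%. Its widest, of 25955 bp at chr1:83927251-83953205, had a fold enrichment of only 2.03. It held 12 H3K4me3 peaks, all of which overlapped H3K27me3. The highest of their fold enrichments was 2.17, below the median of 2.91 of H3K4me3 peaks in gaps. Near the right end of the gap, peaks of both marks had nearly the same edges, as at 313.9 to 316.0 kb from its left edge. Its right border was an H3K27ac peak of 320 bp with a fold enrichment of 1.41, the lowest of all border peaks. That peak overlapped both other marks, and why the 3 marks coincided there was not tested. The following pair lay on chromosome 13. That at chr13:2263512-2594657 had 125.3 kb of H3K27me3 in 44 peaks (37.8%), and 18 of its 19 H3K4me3 peaks overlapped H3K27me3. That at chr13:624800-1374406 had 91.9 kb in 72 peaks (12.3%), and 14 of 16 H3K4me3 peaks overlapped. Their widest H3K27me3 peaks measured 8535 and 8932 bp, with fold enrichments of 5.59 and 4.10, so that here the cover came from many peaks rather than from a single broad one. Another gap of chromosome 13 (chr13:1374775-1591939) followed directly after the last, parted from it by 1 H3K27ac peak of 368 bp, and was covered to 31.3%.

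**Figure D3:**
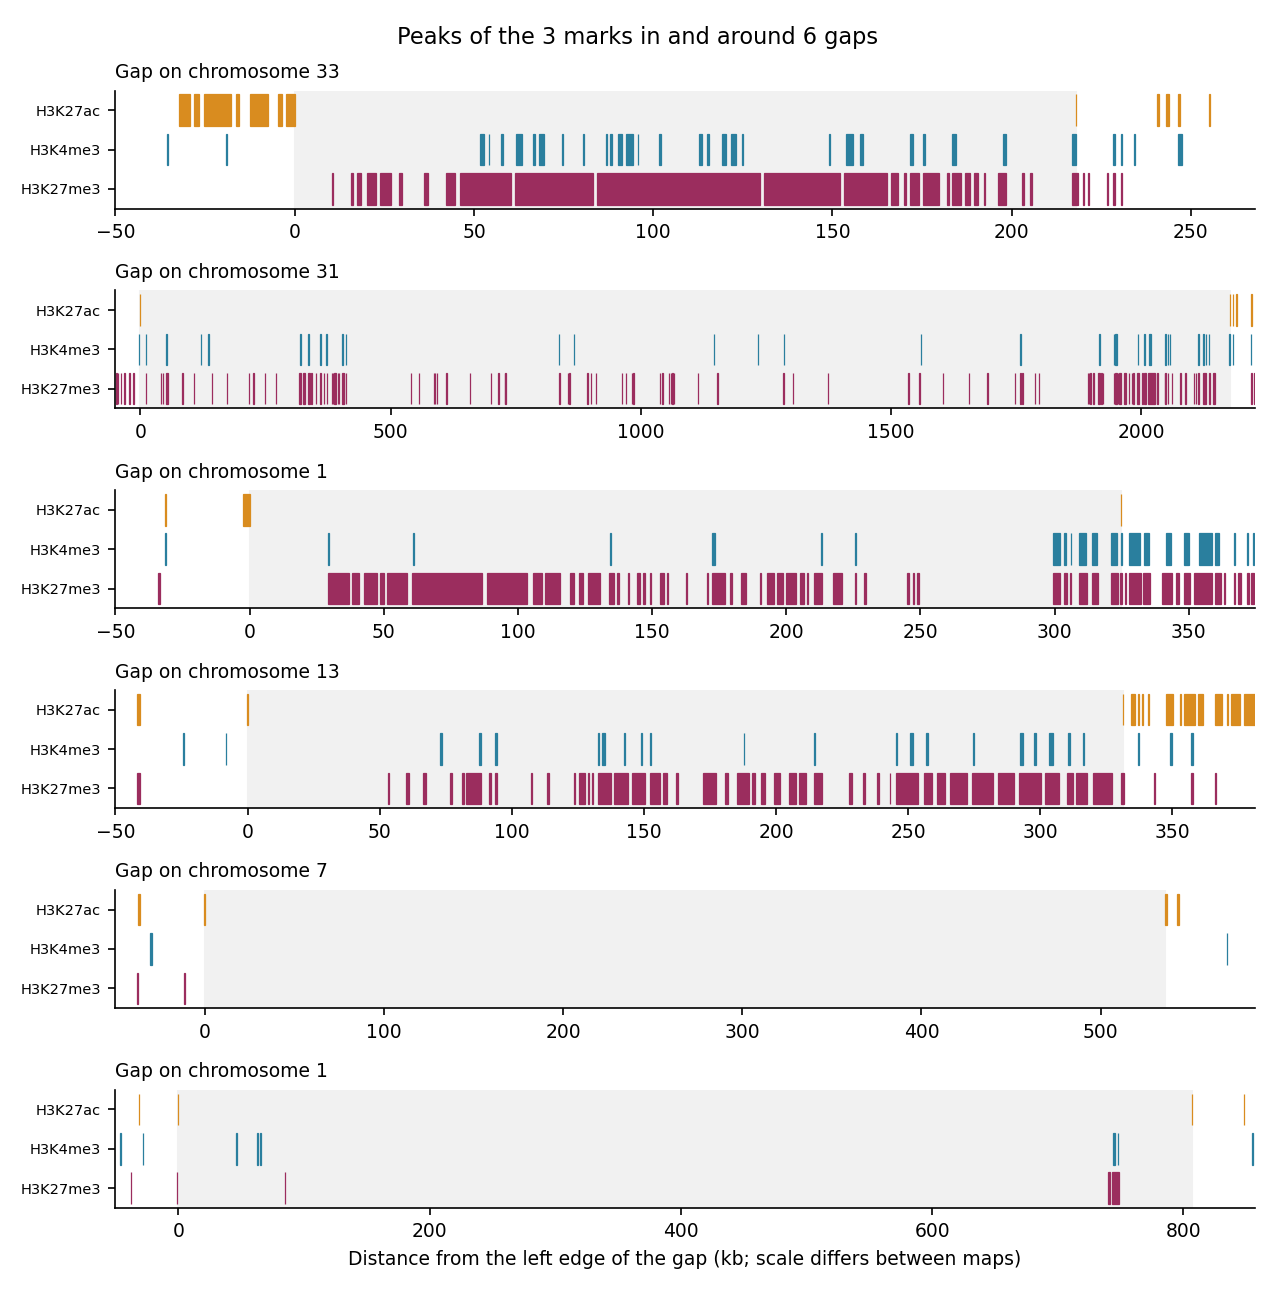
Peaks of the 3 marks in and around 6 gaps (shaded), by distance in kb from the left edge of the gap, with a scale of its own for each map. From the top are the 4 gaps of largest H3K27me3 cover, the longest gap without any peak and the gap with the longest peak-free stretch. H3K27me3 fills 66.9% of the gap on chromosome 33 and 6.16% of that on chromosome 31, and the gap on chromosome 7 has no peak over 536.1 kb.

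By the number of H3K4me3 peaks the first 3 gaps were those on chromosomes 31, 33 and 13 already named, with 32, 26 and 19 peaks. The gap of 1320 kb on chromosome 1 followed with 18, of which 6 overlapped H3K27me3, and then a gap of 201.2 kb on chromosome 14 (chr14:248618-449808) with 17, all of which overlapped H3K27me3. This last had H3K27me3 over 24.2% of its length, and its widest H3K27me3 peak measured 5864 bp with a fold enrichment of 4.52.

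Joined across distances of up to 3 kb, H3K27me3 peaks formed 17118 runs on autosomes, of which 2561 lay inside gaps. Of 231 runs of 10 kb or more, 43 lay in gaps (18.6%, 13.8 to 24.2), where 14.1% of the span lies. These 43 runs came from 21 gaps. The longest was 150.3 kb at chr33:7520759-7671068 with 25 H3K4me3 peaks, and the next 86.4 kb at chr1:83895697-83982137 with 2. Runs of 70.7 kb and 63.9 kb on chromosome 13 had 6 and 7 H3K4me3 peaks. Long Polycomb runs in gaps thus differed in how much H3K4me3 they held.

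H3K4me3 peaks in gaps coincided with H3K27me3 more often than elsewhere. In the whole autosomal list 20.4% of H3K4me3 peaks overlapped an H3K27me3 peak by 1 bp or more. In gaps the share was 35.8% (33.7 to 38.0), or 707 of 1973 peaks, in 241 of the gaps. Peaks in a gap cannot overlap H3K27ac, so the like reference is H3K4me3 peaks outside the gaps without H3K27ac, of which 2915 of 14077 overlapped H3K27me3 (20.7%, 20.04 to 21.4). In intervals of 100 to 200 kb the share was 25.96% (24.2 to 27.8). In the 10 gaps of largest H3K27me3 cover it was 92.0%, a value raised by the way they were picked, and in the other 399 gaps 30.3%, a value lowered by it. On autosomes of 50 Mb or more the share was 26.9% (24.7 to 29.2) in gaps and 19.2% (18.4 to 20.1) outside. It was 46.8% against 19.2% on autosomes of 20 to 50 Mb and 75.4% against 26.6% on smaller ones.

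In the other direction the pooled shares were close. Of the H3K27me3 peaks in gaps, 657 of 3117 overlapped H3K4me3 (21.1%, 19.7 to 22.6), beside 21.0% (20.3 to 21.7) of those outside the gaps without H3K27ac and 24.5% of the whole autosomal list. By size class the share was 18.6% (16.9 to 20.3) in gaps and 19.96% (19.1 to 20.9) outside without H3K27ac on autosomes of 50 Mb or more. It was 27.8% (23.2 to 32.8) against 20.03% (18.5 to 21.7) on autosomes of 20 to 50 Mb, and 25.3% (22.1 to 28.8) against 24.6% (22.9 to 26.2) on smaller ones.

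In width and enrichment, H3K4me3 peaks in gaps differed little from those outside, while more H3K27me3 peaks in gaps reached high enrichment. H3K4me3 peaks had a median width of 392 bp in gaps and a fold enrichment with a median of 2.91, against 397 bp and 2.92 for peaks outside without H3K27ac. A fold enrichment of 4 or more was found in 90 of them (4.56%, 3.68 to 5.58), in 4.88% (4.53 to 5.25) of that reference and in 7.71% of the whole autosomal list. Among H3K4me3 peaks that overlapped H3K27me3, 5.66% (4.07 to 7.62) in gaps and 8.99% (7.97 to 10.1) in that reference reached it. Their median fold enrichment was 2.81 in gaps and 2.96 in the reference. Among those that did not overlap H3K27me3, the medians were 2.95 and 2.91, and 3.95% and 3.81% reached 4. No H3K4me3 peak in a gap was wider than 5 kb, and the widest measured 3710 bp. Such wide peaks were rare outside too, with 5 of 14077 without H3K27ac and 21 of 23335 in all, so their absence does not set gaps apart. H3K27me3 peaks had medians of 514 bp and 2.89 in gaps, against 471 bp and 2.84 outside without H3K27ac. Of these, 361 (11.6%, 10.5 to 12.8) had a fold enrichment of 4 or more, against 8.64% (8.16 to 9.14) of the reference and 8.82% of the whole autosomal list. Those that overlapped H3K4me3 in gaps had a median width of 897 bp, and 25.3% of them reached a fold enrichment of 4, against 446 bp and 7.93% for those that did not. The 9 H3K27me3 peaks wider than 10 kb, of 3117 in gaps, lay in 4 gaps. Outside, 21 of 12770 peaks without H3K27ac and 33 of 16825 in all were that wide.

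On autosomes under 50 Mb, H3K27me3 was denser in gaps near the ends of chromosomes, while on larger ones this rested on few gaps and depended on the limit. Distances were taken to the start of the chromosome or to the last peak on it, and the limit of 3 Mb was set after the values had been seen. Of the 20 gaps with the most H3K27me3 cover, 13 lay within 3 Mb of an end, where 40 of all 409 gaps (9.78%) lay. These 40 gaps, on 20 chromosomes, had 50.5 H3K27me3 peaks per Mb against 25.9 in the rest of the same end zones, a ratio of 1.95 (1.81 to 2.10). The 369 other gaps had 19.2 per Mb against 19.1 in the rest of the chromosome interiors, a ratio of 1.00 (0.959 to 1.05). H3K27me3 covered 3.96% of the median gap near an end and 0.838% of the median gap further in. By size class these medians were 5.06% and 0.658% on autosomes under 50 Mb, and 1.17% and 0.903% on larger ones. H3K4me3 was thinner in gaps in both zones, with ratios of 0.552 and 0.521. Chromosomes 16, 22, 25 and 30, with spans of 2.83, 5.41, 3.96 and 1.80 Mb, lay wholly within 3 Mb of an end. Their 3, 2, 2 and 2 gaps thus counted as near an end at any position. So did the 3 gaps of chromosome 31, since any gap of 200 kb in its 6.14 Mb leaves less than 3 Mb on 1 side. At the limit of 5 Mb given below, chromosomes 27 and 33, with spans of 8.08 and 7.82 Mb and 5 gaps each, also lay wholly near an end. For the gaps of these chromosomes distance from the end and chromosome size cannot be told apart at these limits. Most gaps near an end, 35 of 40, lay on autosomes under 50 Mb. On these the H3K27me3 ratio was 1.93 (1.79 to 2.09) near an end and 0.934 (0.814 to 1.07) further in. On autosomes of 50 Mb or more it was 1.75 (1.28 to 2.33) near an end, from 5 gaps, and 0.998 (0.951 to 1.05) further in, from 323. The reference here is all peaks outside the gaps in the same zone. With a limit of 1 Mb the ratio near an end on these largest autosomes was 2.64 (1.84 to 3.69), from only 2 gaps. With a limit of 5 Mb it was 1.09 (0.842 to 1.40) from 11 gaps. The median cover was then 0.484% near an end against 0.903% further in, so that no difference was seen at that limit. On autosomes under 50 Mb the ratio near an end was 1.63 (1.46 to 1.82) with a limit of 1 Mb and 1.94 (1.80 to 2.09) with 5 Mb. Further in it was 1.45 (1.34 to 1.58) and 0.760 (0.636 to 0.902), and its direction thus turned with the limit. Among H3K4me3 peaks in gaps, 77.1% (72.1 to 81.6) overlapped H3K27me3 within 3 Mb of an end and 27.8% (25.6 to 29.99) further in. These pooled shares mix size classes. On autosomes under 50 Mb they were 78.4% (73.3 to 82.9) and 37.0% (30.1 to 44.3). On autosomes of 50 Mb or more they were 55.6% (30.8 to 78.5), from 18 peaks, and 26.6% (24.3 to 28.9). There a limit of 5 Mb gave 34.3% (19.1 to 52.2) and 26.7% (24.5 to 29.1). Shares outside the gaps in the same zones are not given here.

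**Figure D4:**
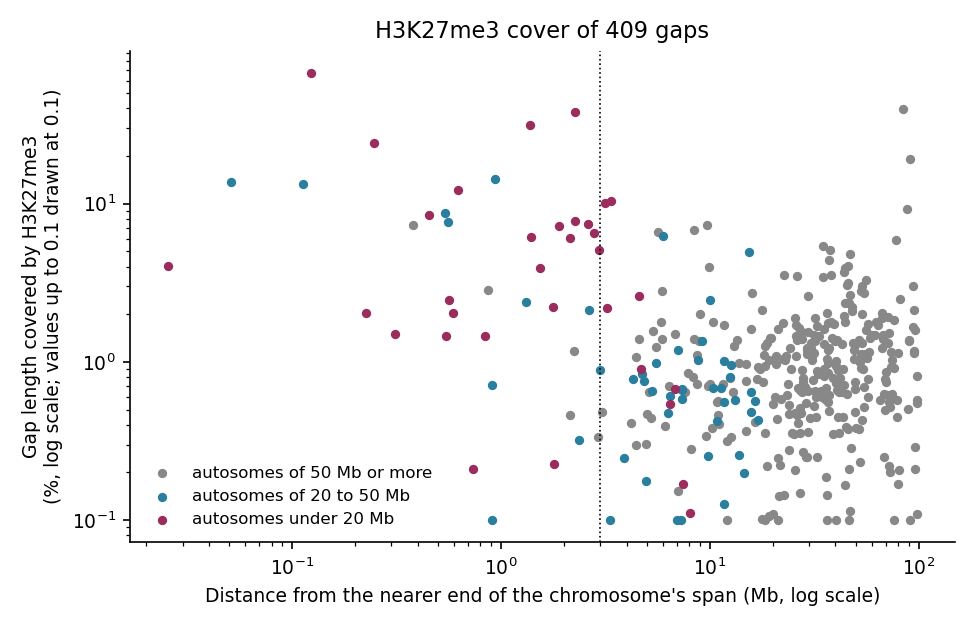
Percent of the length of each of 409 gaps covered by H3K27me3, on a log scale with values up to 0.1% drawn at 0.1%, by distance in Mb from the nearer end of the chromosome's span, on a log scale. Colours give the size class of the autosome and the dotted line the limit of 3 Mb. Over all autosomes the median is 3.96% left of the line and 0.838% right of it, and the cover of 39.6% on chromosome 1 is the highest right of it. On autosomes of 50 Mb or more the medians are 1.17% and 0.903%.

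The gaps had 818 borders, formed by 761 H3K27ac peaks, since 57 peaks bordered a gap on both sides. Border peaks were narrow, with a median of 418 bp (quartiles 300 and 839) against 771 bp for the other autosomal H3K27ac peaks. Their median fold enrichment was 2.67 against 2.66, but fewer of them had a q-value of at most 0.01, 47.4% against 54.1%. Border peaks often stood alone. The next H3K27ac peak outward was at a median of 56.7 kb (quartiles 19.5 and 133.4), and it lay within 10 kb on 16.4% of 811 sides that had one. Of all 43384 autosomal intervals, 24359 measured 1 to 10 kb. These distances come from the list that chose the gaps, and for the 57 peaks between neighbouring gaps the outward distance is itself a gap. They are thus a description. When H3K27ac peaks within 5 kb were joined into islands, 683 of 757 border islands (90.2%) consisted of 1 peak, against 69.0% of all 26757 islands. None of the border islands held 10 or more peaks, and the largest held 7. A border island can grow on 1 side only, because the choice of the gaps leaves the other side empty, so the difference in island size is a description and follows in part from that choice.

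Border peaks overlapped H3K27me3 more often than other H3K27ac peaks did. The share was 21.4% (18.6 to 24.5), or 163 of 761, where 9.34% of all autosomal H3K27ac peaks overlapped H3K27me3 and 9.12% (8.85 to 9.40) of those not at a border. Width and isolation were each looked at separately, and not together. Among peaks of up to 418 bp the share was 20.5% (16.5 to 24.9) at borders and 9.99% (9.47 to 10.5) elsewhere. Among peaks with no other H3K27ac peak within 10 kb it was 21.97% (18.8 to 25.4) at borders and 13.2% (12.502 to 13.8) elsewhere. H3K4me3 was found at 187 border peaks (24.6%, 21.6 to 27.8), where 21.1% of all autosomal H3K27ac peaks overlapped it. Among isolated peaks this share was 25.3% (21.96 to 28.9) at borders and 23.5% (22.7 to 24.4) elsewhere. Both marks were found at 65 border peaks (8.54%), against 3.60% of other peaks, and neither at 476 (62.5%), against 73.5%. Isolated border peaks were narrower than the other isolated peaks, with medians of 406.5 and 582 bp. When whole islands were compared, 22.2% of border islands and 14.5% of other islands overlapped H3K27me3, but with a longer joining distance the shares were 24.2% and 23.5%. H3K4me3 was found in 27.6% of border islands and 30.1% of the others, and in 30.5% and 42.0% with the longer distance. By islands, H3K4me3 was thus less frequent at borders, where by single peaks it was more frequent, mostly among narrow ones.

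Across the border, the pooled density of H3K4me3 changed more than that of H3K27me3. In the first 10 kb outside the border peak there were 21.9 H3K4me3 peaks per Mb (18.8 to 25.3), and in the first 10 kb inside 15.3 (12.7 to 18.2). Further in, up to 100 kb, H3K4me3 stayed between 14.6 and 17.5 per Mb, and outside between 18.7 and 20.4. H3K27me3 was at 23.0 per Mb (19.8 to 26.5) in the first 10 kb inside and 21.3 (18.2 to 24.7) outside. It ranged from 22.2 to 23.5 inside and from 20.7 to 22.0 outside at the other distances. H3K27ac outside the borders was itself sparse, between 17.0 and 19.95 peaks per Mb within 100 kb, against 45.2 over all autosomes. Windows outside can include neighbouring gaps. A peak wholly inside a gap cannot overlap H3K27ac, while one outside can, and H3K4me3 is found at part of the H3K27ac peaks. The outside windows were not read without such peaks. How much of the H3K4me3 difference follows from the choice of the gaps was therefore not tested.

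**Figure D5:**
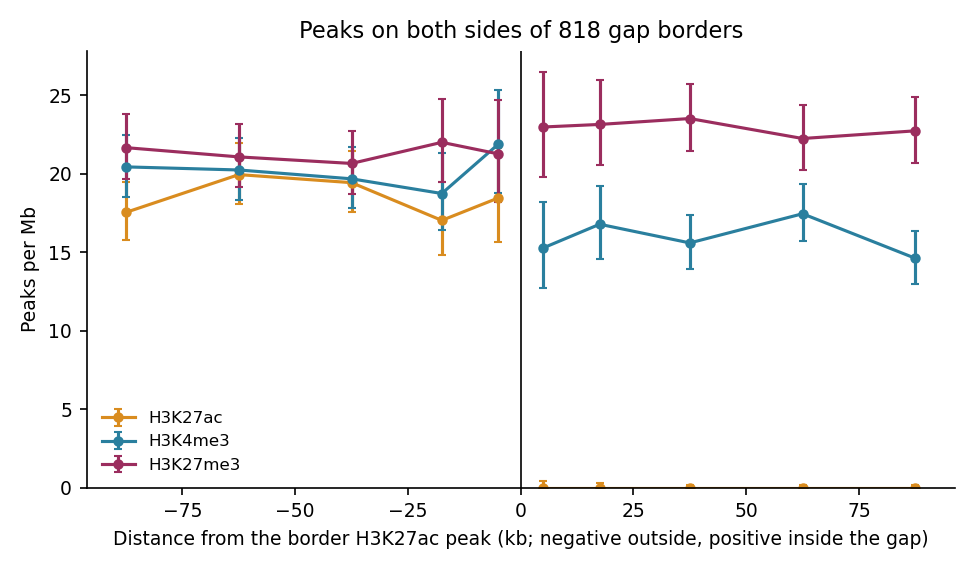
Peaks per Mb by distance in kb from the border H3K27ac peak, outside (negative) and inside (positive) the gap, over 818 borders, with the border peak itself left out. Points stand at the middle of bins of 10, 15 or 25 kb, and bars are exact 95% Poisson intervals of the count. H3K4me3 falls from 21.9 to 15.3 per Mb across the border, H3K27me3 is at 21.3 and 23.0, and H3K27ac inside is 0 by the choice of the gaps. Peaks outside can overlap H3K27ac, while peaks wholly inside a gap cannot.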

How the data were processed

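Peak lists of 3 ChIPseq libraries were used, H3K27ac, H3K4me3 and H3K27me3, and sample titles gave the groups. By the study's methods and the submitters' processing notes, the authors trimmed reads with Trim Galore, mapped them to GalGal6 with BWA in the NF-core ChIPseq pipeline, and used MACS2 in broad mode with an FDR limit of 0.1 on each library. Whether the input served as control is not given in the sources used here. The deposited lists give each peak's fold enrichment over local background, its −log10 p-value and −log10 q-value, and a score, of which the score and p-value were not used. All deposited peaks had a −log10 q-value of at least 1.01.

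Gaps, densities, cover and overlaps were computed with Python 3.11.15, pandas 2.3.3 and scipy 1.17.1, and the functions were tested on simulated data. A peak counted as inside when it lay wholly in the gap. Overlap was counted from 1 bp. The span of a chromosome was taken as its largest peak end over the 3 lists, and stretches before the first or after the last H3K27ac peak were not gaps. Shares carry exact Clopper-Pearson 95% intervals, and density ratios carry exact conditional binomial intervals. With peaks counted per library, a deeper library could close gaps or fill them, and the level of 1 mark against another depends on both depths.

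The gaps named were the 5 longest, the 5 of largest H3K27me3 cover, the 5 with the most H3K4me3 peaks, those without any peak, and the 3 on either side of 200 kb. Peak-free stretches, distance to chromosome ends, joined runs, isolated border peaks, chains of gaps and the chromosomes singled out were picked once their values were known. The reference without H3K27ac and the other limits for chromosome ends were added later still. The members and lists were chosen with earlier results of these data known. Alternatives changed the minimum length, the thresholds of each list, what counts as inside or overlapping, and the chromosomes and gaps included. Gene content and sequence were not analysed here, since the gene table at hand follows another assembly.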

Additional observations from a re-analysis of the deposited data

How the results depend on the processing

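Of 83 values of 15 results under alternatives, 45 stayed within their interval or within 1.5 times, 33 moved and 5 crossed to the other side of 1. Some of these 5 had intervals that include 1, so a crossing is not by itself a reversal. Setting aside chromosomes 16, 31 and 33, the 10 gaps of largest H3K27me3 cover, or the 11 gaps with a long empty stretch was added after seeing the data, as were the reference without H3K27ac and the limits of 1 and 5 Mb for chromosome ends.

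A minimum of 100 kb gave 1453 gaps of 278.0 Mb, one of 300 kb 169 gaps of 78.1 Mb, and an H3K27ac list limited to q-values up to 0.01 gave 746 gaps of 285.9 Mb, by construction. The H3K4me3 density ratio stayed below 1 throughout. It was 0.543 with peaks counted from 1 bp, 0.491 at a q-value of at most 0.01, 0.294 at a fold enrichment of 4 (cover ratio 0.177), 0.488 without the 10 gaps, and 0.805 (cover ratio 0.815) against peaks without H3K27ac in sequence free of it.

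The H3K27me3 density ratio came to 0.991 (0.961 to 1.02) in gaps made with the stricter H3K27ac list. Without the 10 gaps it was 0.997 (0.956 to 1.04). Both intervals include 1, so the pooled difference was lost there rather than reversed. Without the 10 gaps the cover ratio went from 1.27 to 0.902, since the most covered gaps were removed. The density ratio was 1.02 at 100 kb, 1.24 at 300 kb, 1.18 from 1 bp, 1.30 at a q-value of at most 0.01, 1.57 at a fold enrichment of 4, 1.00 on autosomes of 50 Mb or more and 1.07 without chromosomes 16, 31 and 33. It was 1.15 without the 11 gaps with a long empty stretch, which were picked for that emptiness, and 1.40 against peaks without H3K27ac. Away from chromosome ends it went from 0.998 to 1.01 (0.962 to 1.06) with a limit of 5 Mb on autosomes of 50 Mb or more, with no difference at either limit. On smaller ones it went from 0.934 (0.814 to 1.07) to 1.45 (1.34 to 1.58) with 1 Mb. The H3K27me3 cover ratio of 1.27 became 1.00 with the stricter H3K27ac list and 1.01 on autosomes of 50 Mb or more. Both were counted as stayed, since they lay within 1.5 times.

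The share of H3K4me3 peaks with H3K27me3 was 33.3% in gaps and 18.7% outside with an overlap of 50% of the shorter peak, 43.3% and 24.5% at a q-value of at most 0.01, and 30.3% in gaps without the 10. It was 19.1% with all H3K4me3 peaks outside as reference. With H3K27ac peaks joined at the longer of the distances tried, 30.5% of border islands had H3K4me3, against 42.0% of other islands. At a q-value of at most 0.01, 24 gaps in place of 3 had no peak of the other marks. The cause of the moved values was otherwise not tested. No paired analysis was possible because each mark has 1 library. Unknown depth limits the number and length of gaps, and unplaceable sequence within them was not measured.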

Other observations

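Gaps also followed each other in chains, parted by a single H3K27ac peak. There were 45 chains of 2 or more gaps, which held 102 of the 409 gaps, and 10 of them had 3 or more. The pair of longest chains by number both lay on chromosome 1 and had 4 gaps each. That at chr1:149880967-151436737 spanned 1556 kb with 3 H3K27ac peaks inside, 1648 bp in all, and held 42 H3K4me3 and 71 H3K27me3 peaks. That at chr1:152608357-153625978 spanned 1018 kb with 3 H3K27ac peaks of 1246 bp in all, and held 10 H3K4me3 and 36 H3K27me3 peaks. On chromosome 2 a chain of 3 gaps at chr2:26938957-28077210 spanned 1138 kb and held 17 H3K4me3 and 10 H3K27me3 peaks.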
